A study of Rattus norvegicus with 6 samples.

Results

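The miR-148/miR-152 family was followed in the lumbar spinal cord of rats with bone cancer pain (BCP). Its 6 mature miRNAs, which are the 5p and 3p arms of miR-148a, miR-148b and miR-152, were taken by name from the 753 known mature miRNAs of the count table, where they stand as rno-miR-148a-5p, rno-miR-148a-3p, rno-miR-148b-5p, rno-miR-148b-3p, rno-miR-152-5p and rno-miR-152-3p. All 6 had counts in every library and passed the filter on low counts, which kept 459 miRNAs. Small RNA libraries were made from 3 BCP rats and 3 sham-operated (sham) rats, 1 for each rat, on day 14 after cells had been placed in the cavity of the left tibia. The BCP rats received living cells of Walker 256, a breast carcinoma line of the rat, whereas heat-killed cells of the same line were given to the sham rats, so that both groups had the operation and cell material. The strain is Wistar in the sample labels and Sprague Dawley, with females only, in the study's methods, and no genetic change was made in either group. The tissue was whole cord of the injected side without meninges, a mixture of all cord cells, so a higher level cannot be told apart from more cells of a type.

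A microRNA is cut from a hairpin precursor as a duplex of a 5p and a 3p arm. One arm, the guide, is usually kept in an Argonaute protein and steers it to messenger RNAs that pair with the seed, while the other arm, the passenger, is mostly degraded. In the miR-148/miR-152 family the 3p arm is the guide. The family is known for repressing Dnmt1, the maintenance DNA methyltransferase, and Camk2a, a calcium-dependent kinase, and in dendritic cells it is known to be induced through Toll-like receptors. These are background facts and were not measured here.

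The mature sequences are shown first because the 3p members share a seed and differ at few bases elsewhere. RefSeq sequences (assembly GRCr8) matched 5 of the 6 members, all but miR-148b-5p. They are written 5′ to 3′ with the seed, bases 2 to 8, in capitals.
miR-148a-3p: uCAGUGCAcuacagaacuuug
miR-148b-3p: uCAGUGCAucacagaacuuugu
miR-152-3p: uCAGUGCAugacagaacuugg
miR-148a-5p: aAAGUUCUgagacacucugacuc
miR-152-5p: aGGUUCUGugauacacuccgacu

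The seed CAGUGCA was shared by the 3 guide members and by 0 of the other mature miRNAs in that RefSeq table. Counted from 1 at the 5′ end of miR-148a-3p, miR-148b-3p differed from it by C9U and U10C, and miR-152-3p differed from it by C9U, U10G and U20G. The guide sequences are therefore distinct at the bases just after the seed, although how reads that match several miRNAs were assigned is not given in the sources used here. The passenger members miR-148a-5p and miR-152-5p had different seeds, AAGUUCU and GGUUCUG, which 0 other mature miRNAs in the RefSeq table shared. Both passengers are 23 bases long there, whereas the study's methods give 21 to 22 bases for known miRNAs, and what this did to the passenger counts was not tested.

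The precursor of miR-148a is shown with both arms in capitals, since the comparison below turns on both of its arms. The 2 arms are separated by 15 bases of the loop.
Mir148a: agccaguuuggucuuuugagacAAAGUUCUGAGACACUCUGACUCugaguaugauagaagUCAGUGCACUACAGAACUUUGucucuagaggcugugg

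In the RefSeq annotation, Mir148b lies within the span of Copz1 and Mir152 within that of Copz2, paralogous genes for the zeta subunits of the coat protein complex I. Mir148a lies within no protein-coding gene, and Npvf, which encodes a neuropeptide precursor, is its neighbour on one side.

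Total counts ranged from 13464349 to 23770677 per library, and a floor of 3 counts stands for 0.126 to 0.223 CPM, the count scaled to the library total. The lowest count of any member in any library was 29. Levels below are CPM with TMM factors from edgeR. BCP and sham were compared by the quasi-likelihood test of edgeR, with p-values adjusted after Benjamini and Hochberg over 459 miRNAs. A miRNA was called at an adjusted p below 0.05 with an absolute log2 fold change above 0.8, the thresholds of the study.

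Both arms of miR-148a were higher in all BCP rats than in all sham rats, by 1.71-fold for the guide and 1.83-fold for the passenger, but neither passed both thresholds in edgeR's quasi-likelihood test. The level of miR-148b and miR-152 differed between the group means by 1.14-fold or less in all 4 of their arms. Of the 6 members 0 were called, where 3.49% of all tested miRNAs were called in either direction. At an unadjusted p below 0.05 in the same test, 2 of the 6 members were higher in the BCP group, against 10.7% of all tested miRNAs. Among the other tools, DESeq2, edgeR's exact test and edgeR's likelihood ratio test each called 1 member, miR-148a-5p, and limma-voom called 0. These tools called 4.15%, 5.23%, 5.45% and 3.49% of all miRNAs that they tested, in that order.

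The guide miR-148a-3p was the most abundant member. Its level was 6330, 8496 and 9893 CPM in BCP rats 1, 2 and 3, respectively, against 4722, 3755 and 5957 CPM in sham rats 1, 2 and 3. The groups did not overlap, although BCP rat 1 lay only slightly above sham rat 3. The means were 8240 ± 1795 CPM in the BCP group and 4811 ± 1104 CPM in the sham group (SD, n = 3 rats each). The log2 fold change was 0.78 (standard error 0.205), with an adjusted p of 0.0891 from edgeR's quasi-likelihood test. The adjusted p was 0.0257 with DESeq2, 0.00954 with the exact test of edgeR and 0.00936 with its likelihood ratio test, where only the fold change missed its threshold, and all alternatives lay between 0.00936 and 0.342. In an exact two-sided permutation test the p was 0.1, the smallest that 3 rats against 3 allow.

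The passenger miR-148a-5p had 724, 482 and 706 counts in BCP rats 1, 2 and 3, respectively, against 267, 245 and 375 counts in sham rats 1, 2 and 3. This was 30.7, 35.5 and 44.7 CPM in the BCP group, against 19.2, 16.1 and 25.1 CPM in the sham group. The rats stood in the same order as for the guide, with BCP rat 3 highest and sham rat 2 lowest. The log2 fold change was 0.87 (standard error 0.205), and the adjusted p of 0.0582 from edgeR's quasi-likelihood test missed the threshold. DESeq2 gave an adjusted p of 0.00719, the exact test of edgeR 0.00323 and its likelihood ratio test 0.00315, and all alternatives lay between 0.00315 and 0.265. Without BCP rat 1 the quasi-likelihood test called both arms of miR-148a, with log2 fold changes of 0.92 for the guide and 0.98 for the passenger, and without sham rat 3 it called the passenger at 1.03. Of all tested miRNAs, 4.28% were called without BCP rat 1 and 3.62% without sham rat 3. These rats lay nearest to the other group. Without BCP rat 2, BCP rat 3, sham rat 1 or sham rat 2, the quasi-likelihood test called neither arm. Its adjusted p was then 0.179 to 0.342 for the guide and 0.134 to 0.265 for the passenger. It gave the 2 arms adjusted p of 0.0967 to 0.160 with no filter, at least 10 counts in every library or other normalizations.

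The guide miR-148b-3p lay in a narrow range. It had 2217, 2226 and 2080 CPM in the BCP rats 1, 2 and 3, against 2053, 1941 and 1959 CPM in the sham rats 1, 2 and 3. The groups did not overlap, but the means of 2174 ± 82.0 and 1985 ± 60.2 CPM (SD, n = 3 rats each) were only 1.10-fold apart. The log2 fold change was 0.13, with a 95% interval from -0.068 to 0.33 and an adjusted p of 0.594 from edgeR's quasi-likelihood test. It was also the steadiest member, with a coefficient of variation between rats of 3.77% in the BCP group, against 3.03% in the sham group. For miR-148a-3p this coefficient was 21.8% in the BCP group and 22.9% in the sham group.

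For its passenger, miR-148b-5p, the levels were 20.3, 27.3 and 29.2 CPM in the BCP rats, against 23.9, 19.5 and 24.1 CPM in the sham rats. These groups overlapped, because BCP rat 1 lay below sham rats 1 and 3. The log2 fold change was 0.18, with a 95% interval from -0.21 to 0.58 and an adjusted p of 0.708 from edgeR's quasi-likelihood test.

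The guide miR-152-3p had 143, 160 and 184 CPM in the BCP rats, against 154, 121 and 190 CPM in the sham rats. Here the highest level was that of sham rat 3 and the groups overlapped throughout. The log2 fold change was 0.069, with a 95% interval from -0.35 to 0.49 and an adjusted p of 0.918 from edgeR's quasi-likelihood test, and its sign turned without BCP rat 3 (-0.039) or without sham rat 2 (-0.089).

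The passenger miR-152-5p was the rarest member, with 46, 36 and 42 counts in the BCP rats, against 35, 29 and 31 in the sham rats. Its levels were 1.95 to 2.66 CPM in the BCP group and 1.91 to 2.52 CPM in the sham group, which overlapped. The log2 fold change was 0.15, and its 95% interval from -0.39 to 0.68 was the widest of the 6.

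**Figure D1:**
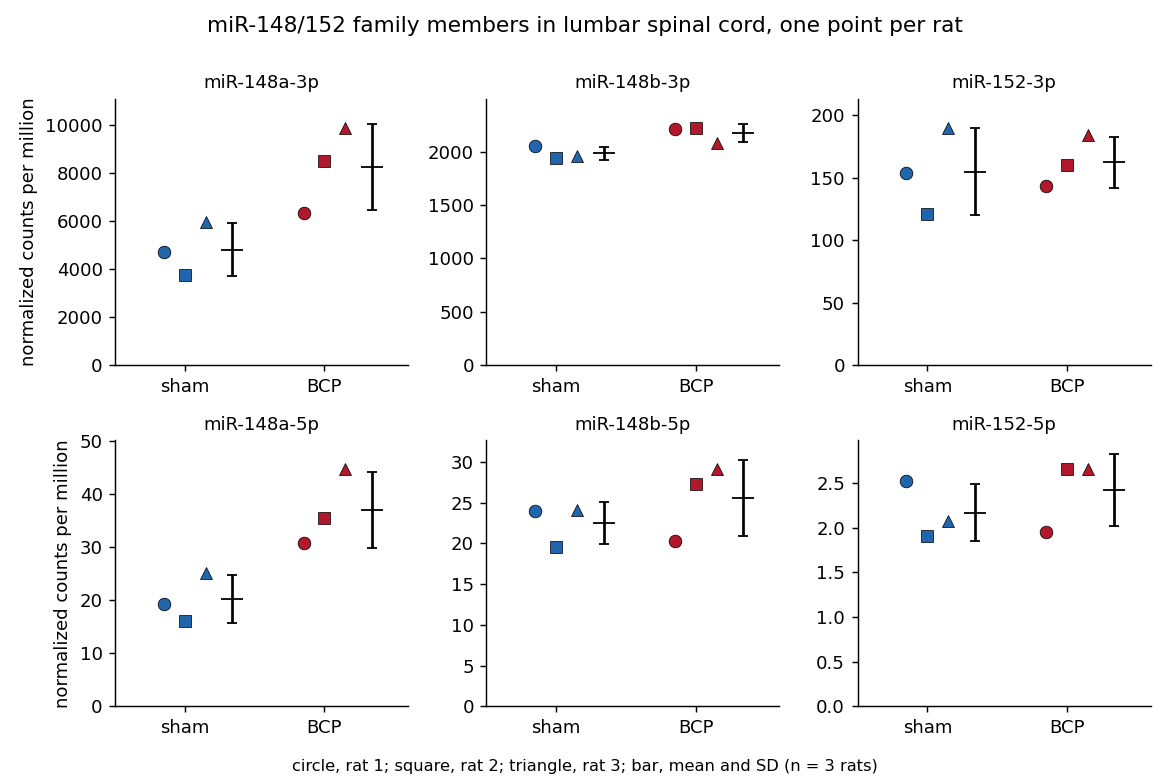
Levels of the 6 members in normalized CPM (vertical axes, each starting at 0), with 1 point per rat and the mean with SD beside each group of 3 rats. Both arms of miR-148a lie higher in all BCP rats than in all sham rats, and the points of miR-148b-5p, miR-152-3p and miR-152-5p overlap between the groups.

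All BCP rats were above all sham rats in 3 of the 6 members, against 13.3% of all tested miRNAs. These were both arms of miR-148a and miR-148b-3p. The median log2 fold change of the 6 members was 0.16, against -0.0034 over all tested miRNAs.

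The order of the levels was the same in the means of both groups for the guides. miR-148a-3p was followed by miR-148b-3p and miR-152-3p, which ranked 32nd, 52nd and 160th by mean level among the 459 miRNAs. Within each of the 6 rats miR-148a-3p was 1.93 to 4.76 times miR-148b-3p, and miR-148b-3p was 10.3 to 16.1 times miR-152-3p. Both ratios were above 1 in 6 of 6 rats (exact two-sided sign-flip permutation test over rats, p = 0.03125, the smallest possible, adjusted p = 0.0352 over 9 ratios). Counts of different miRNAs also depend on how readily each sequence enters a library, so these are ratios of counts and not of molecules.

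Among the passengers, miR-148a-5p and miR-148b-5p were neighbours in the order and could not be told apart over the 6 rats, with miR-148a-5p higher in 4 of 6 (exact two-sided sign-flip permutation test, p = 0.281). Both were above miR-152-5p in 6 of 6 rats, by a geometric mean ratio of 11.7 for miR-148a-5p and 10.4 for miR-148b-5p (p = 0.03125 in the same exact test, the smallest possible). The order of the first pair was not the same in the groups. For 1 count of miR-148b-5p, miR-148a-5p had 1.51, 1.30 and 1.53 counts in BCP rats 1, 2 and 3, respectively, against 0.805, 0.825 and 1.04 counts in sham rats 1, 2 and 3. All BCP rats were thus above all sham rats, and the log2 difference was 0.71 (exact two-sided permutation test with p = 0.1, the smallest possible, and adjusted p = 0.2 over 12 measures of paralogue balance). Of the other tested miRNAs, 6.99% were higher against miR-148b-5p in all BCP rats than in all sham rats, a share computed after the values were seen. Against miR-152-5p the ratios of miR-148a-5p were 15.6, 13.2 and 16.6 in the BCP rats and from 7.54 to 11.9 among the sham rats, again without overlap, where 6.55% of the other miRNAs did the same.

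The ratio of miR-148a-3p to miR-152-3p did not overlap between the groups and lay within a narrow range in the sham rats. It was 44.2, 52.9 and 53.8 in BCP rats 1, 2 and 3, respectively, against 30.6, 31.1 and 31.3 in sham rats 1, 2 and 3. The level of either miRNA alone varied between the sham rats with a coefficient of variation above 22%. With 2137, 1836 and 2843 counts of miR-152-3p in sham rats 1, 2 and 3, counting error alone moves such a ratio. The narrow range of 3 rats therefore does not show that the ratio is constant. The log2 difference was 0.69, with means of 5.65 ± 0.158 and 4.96 ± 0.0162 (SD, n = 3 rats each), at the smallest possible p of 0.1 in the exact permutation test (adjusted p = 0.2 over 12 measures). Against miR-152-3p, 8.95% of the other tested miRNAs were higher in all BCP rats than in all sham rats.

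Against miR-148b-3p, where 7.64% of the other tested miRNAs were higher in every BCP rat, the groups overlapped for miR-148a-3p, since it was 2.86 times miR-148b-3p in BCP rat 1 and 3.04 times in sham rat 3. The other rats had ratios of 3.82 and 4.76 in the BCP group, against 2.30 and 1.93 in the sham group. The log2 difference of 0.65 had a p of 0.2 in the exact permutation test. The guides of miR-148b and miR-152 differed against each other by 0.045 on the log2 scale between the groups and their passengers by 0.024 (p = 0.8 for both in the exact permutation test), and each of these changed sign in 2 of the 6 fits that left out a rat.

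**Figure D2:**
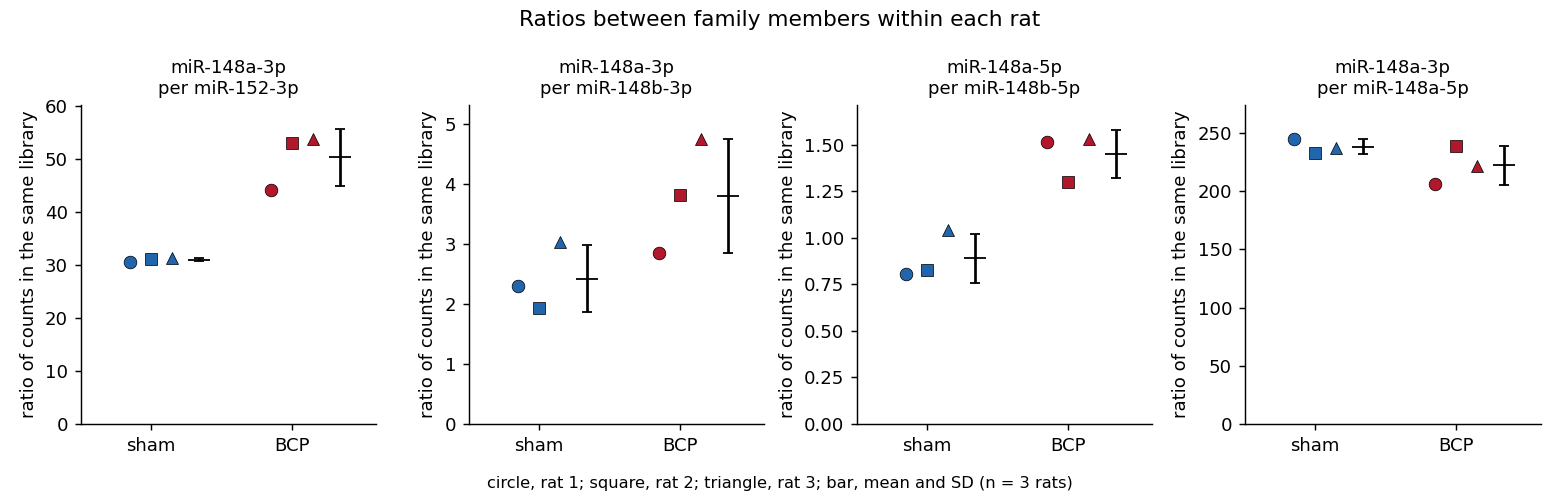
Ratios of counts between members of the family in the same library (vertical axes, starting at 0), with 1 point per rat and the mean with SD beside each group of 3 rats. The ratio of miR-148a-3p to miR-152-3p is 30.6 to 31.3 in the sham rats and 44.2 to 53.8 in the BCP rats, while the ratio of the 2 arms of miR-148a overlaps between the groups.

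Because the 3 guides share a seed, their counts were also added up. The sum was 8690, 10883 and 12157 CPM in BCP rats 1, 2 and 3, respectively, against 6930, 5817 and 8107 CPM in sham rats 1, 2 and 3. The groups did not overlap, with means of 10577 ± 1753 and 6951 ± 1145 CPM (SD, n = 3 rats each), a 1.52-fold difference (exact two-sided permutation test with p = 0.1, the smallest possible). miR-148a-3p made up 94.6% of the difference of 3626 CPM, and the sum of the other two guides was 2337 ± 64.7 CPM in the BCP group and 2140 ± 73.1 CPM in the sham group (SD, n = 3 rats each).

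Within this sum, the share of miR-148a-3p was 72.8%, 78.1% and 81.4% in BCP rats 1, 2 and 3, respectively, against 68.1%, 64.5% and 73.5% in sham rats 1, 2 and 3. The groups overlapped by BCP rat 1 and sham rat 3, and the difference of 8.70 percentage points had a p of 0.2 in the exact permutation test. The share of miR-152-3p was 1.55% ± 0.0917 in the BCP group and 2.21% ± 0.135 in the sham group (SD, n = 3 rats each), lower in all BCP rats than in all sham rats. Counting error was small for these shares, whose 95% Wilson intervals spanned at most 0.631 percentage points.

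The share of miR-148a-5p in the summed passenger counts was 58.0%, 54.2% and 58.4% in the BCP rats, against 42.1%, 42.9% and 49.0% in the sham rats. It was higher in every BCP rat, by 12.2 percentage points between the means (p = 0.1 in the exact permutation test, the smallest possible). With few passenger counts the 95% Wilson intervals spanned up to 8.17 percentage points, and those of the nearest rats overlapped, from 50.9% to 57.5% in BCP rat 2 and from 45.4% to 52.5% in sham rat 3.

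The guide exceeded the passenger in every rat for all 3 stem loops. The counts of 3p for each count of 5p were 206 to 245 for miR-148a, 71.3 to 109 for miR-148b and 59.7 to 90.3 for miR-152. The exact two-sided sign-flip permutation test gave p = 0.03125 for each, the smallest that 6 rats allow (adjusted p = 0.0352 over 9 ratios). Among 149 stem loops with both arms past the filter, 69 had more 3p than 5p counts, and miR-148a ranked 9th, miR-148b 17th and miR-152 20th by the excess of 3p.

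No shift in the arm balance of miR-148a was detected in BCP. Its ratio of guide to passenger was 206, 239 and 221 in BCP rats 1, 2 and 3, respectively, against 245, 233 and 237 in sham rats 1, 2 and 3, which overlapped. The log2 ratio of 5p to 3p was higher by 0.10 in the BCP group, with a 95% interval from -0.16 to 0.36 and an adjusted p of 0.828 from limma over the 149 stem loops. The differences were 0.042 for miR-148b, with an interval from -0.42 to 0.51, and 0.063 for miR-152, with an interval from -0.41 to 0.54. In the whole fit 0% of the stem loops had an adjusted p below 0.05 with limma, 7 had an unadjusted p below 0.05, and an edgeR fit of both arms called 0.

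Log2 fold changes above 0.5 in both arms of a precursor were seen in 8 of 149 stem loops, and miR-148a was 5th when the stem loops were ordered by the smaller fold change of the 2 arms. This order is a description, since the 2 arms come from the same precursor and the same libraries.

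**Figure D3:**
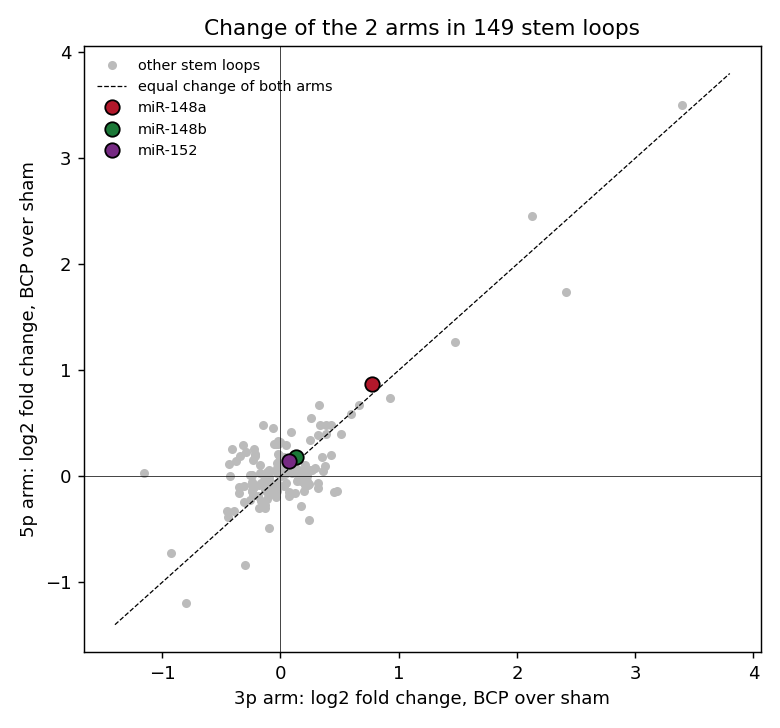
Log2 fold change of BCP over sham rats for the 3p arm (horizontal axis) and the 5p arm (vertical axis) of 149 stem loops, 1 point each, with a dashed line where both arms change equally. miR-148a lies near the line at 0.78 and 0.87, and miR-148b and miR-152 lie close to the origin.

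The members also varied between rats of the same group. Sham rat 2 had the lowest level of its group in all 6 members. BCP rat 3 had the highest level of its group in 5 of 6 members and BCP rat 1 the lowest in 5 of 6, with miR-148b-3p as the exception in both. Among all 459 tested miRNAs, sham rat 2 was lowest of its group in 39%, BCP rat 3 highest in 36.2% and BCP rat 1 lowest in 41%, shares computed after the values were seen. The part of the libraries as a whole in the order of the members was not tested. The likeness of 2 miRNAs was measured as the root mean square difference of their log2 levels, centred on the mean of the 6 libraries, so that 0 means the same pattern. It was 0.084 between the arms of miR-148a, 0.43 between miR-148a-3p and miR-148b-3p, and 0.36 between miR-148a-3p and miR-152-3p.

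Outside the family, miR-20a-5p was the most like both arms of miR-148a, at 0.079 from the guide and 0.096 from the passenger, where the median distance of all other miRNAs was 0.51 and 0.54. miR-20a-5p, a member of the miR-17-92 cluster, had 144, 206 and 220 CPM in BCP rats 1, 2 and 3, respectively, against 96.6, 79.2 and 129 CPM in sham rats 1, 2 and 3. The next nearest were miR-362-5p and miR-6329, with log2 fold changes of 0.67 and 0.78 and adjusted p of 0.147 and 0.327 from edgeR's quasi-likelihood test, and the value of miR-6329 fell to 0.50 without BCP rat 3. These 3 miRNAs share the libraries with miR-148a, and BCP rat 1 lay low and sham rat 3 high within its group in all of them.

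Outside the family, the nearest miRNAs of miR-148b-3p were miR-185-5p, miR-93-5p and miR-196b-5p, at distances of 0.050 to 0.053, all of them nearly flat across the rats. Also outside the family, miR-26b-5p was nearest to both passengers miR-148b-5p (0.056) and miR-152-5p (0.095), followed by miR-219a-5p and miR-143-3p for the first and by miR-216a-5p and miR-598-3p for the second. These 2 passengers were 0.090 from each other. Seen from miR-152-5p, miR-148b-5p was nearer than any miRNA outside the family, but miR-152-5p was only the 10th nearest to miR-148b-5p. As miR-152-5p had 29 to 46 counts, counting error enters its distances, and its part in them was not tested. Outside the family, miR-152-3p was closest to miR-376a-5p, miR-380-5p and miR-382-3p, at 0.054 to 0.073, which are miRNAs of the Dlk1-Dio3 imprinted domain.

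**Figure D4:**
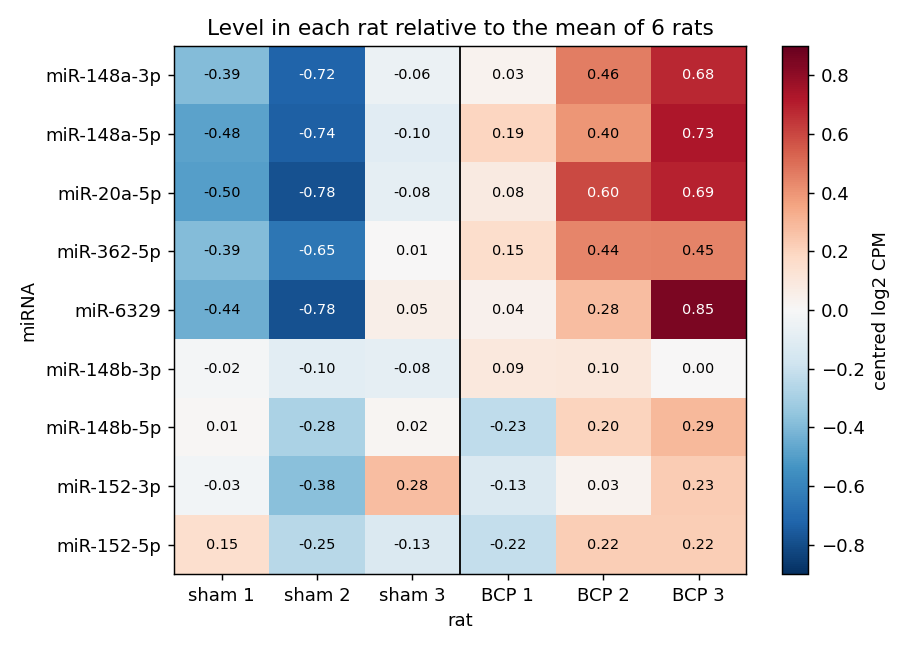
Log2 CPM of the 6 members and of the 3 miRNAs nearest to miR-148a in each rat, centred on the mean of the 6 libraries (colour and printed value). Both arms of miR-148a run from -0.72 and -0.74 in sham rat 2 to 0.68 and 0.73 in BCP rat 3, and miR-20a-5p from -0.78 to 0.69, while miR-148b-3p lies between -0.097 and 0.10.

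Lists of other miRNAs were read beside the family. Of 5 further miRNAs known to target DNA methyltransferases (miR-29a-3p, miR-29b-3p, miR-29c-3p, miR-143-3p and miR-185-5p), 0 were called by edgeR's quasi-likelihood test, and their log2 fold changes were 0.042 to 0.24. Of 6 miRNAs known to be induced through Toll-like receptors, 5 were tested and 3 were called as higher in the BCP group, and miR-21-5p is listed at 0 in all 6 libraries. Over all tested miRNAs 3.49% were called in the same test. miR-155-5p rose by a log2 fold change of 3.50 (adjusted p = 1.98e-06) and miR-146a-5p by 1.74 (adjusted p = 2.64e-04) in the edgeR test, and miR-147 had 39, 37 and 38 counts in the BCP rats, against 2, 3 and 0 in the sham rats. As miR-147 passed the filter on low counts only through the BCP rats, its call carries no weight here. The other two tested members did not pass, with log2 fold changes of 0.0011 for miR-146b-5p (adjusted p = 1.00 in the edgeR test) and -0.13 for miR-132-3p (adjusted p = 0.685). The log2 fold changes of both miR-148a arms lay between these and those of miR-155-5p and miR-146a-5p, and the list is no independent evidence because it was written with earlier results of these data known.

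Markers of cells that a cord sample may hold were compared in the same way, again beside 3.49% called over all tested miRNAs. Of 6 leukocyte miRNAs, 4 were tested and 1, miR-223-3p, rose (log2 fold change 2.13, adjusted p = 0.019 in the edgeR test, but 0.0614 without BCP rat 2), while miR-142-3p and miR-142-5p are listed at 0 in all 6 libraries. These entries are not read as absence, since miR-21-5p, which most tissues express, is listed at 0 as well. The summed level of the 4 was 1682 to 2126 CPM in the BCP group and 1650 to 2200 CPM in the sham group. Nearly all of it came from miR-150-5p and miR-342-3p, while miR-223-3p had 6.51 ± 1.25 CPM in the BCP group and 1.5 ± 0.825 CPM in the sham group (SD, n = 3 rats each), so the sum does not show its change. Of 4 red cell miRNAs 0 could be tested, as 3 are listed at 0 in every library and miR-486 was not analysed here. Among 7 neuron and oligodendrocyte miRNAs and 5 miRNAs of liver, muscle and pancreas, 0 were called. The former summed to 139670 to 149585 CPM in the BCP group and 135546 to 150601 CPM in the sham group, and the latter to 165 to 188 and 155 to 199 CPM. Most of the former came from miR-9a-5p and miR-128-3p. Their means were 70764 and 56611 CPM in the BCP group, against 62557 and 62170 CPM in the sham group. As these went opposite ways, the sum does not show the changes of its members. The part of leukocytes in the level of miR-148a was not tested.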

How the data were processed

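Per the study's methods and labels, the authors cleaned the small RNA reads with the FASTX Toolkit 0.0.13 and aligned those of 18 to 40 bases to Rnor 6.0 with Bowtie2 2.2.3. Known miRNAs were taken at 21 to 22 bases from miRBase 22.0. The deposited file holds the authors' unnormalized counts of 753 mature miRNAs, 1 column for each of the 6 rats, and 0 columns had no sample.

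The family members and the lists were chosen with earlier results of these data known. The analysis used edgeR 4.0.16 in R 4.3.3 (filterByExpr with a minimum count of 10, TMM, quasi-likelihood test). Arm balance was tested with limma 3.58.1 on log2 of the 5p to 3p ratio with a pseudocount of 0.5, over stem loops with both arms past the filter. DESeq2 1.42.0 was an alternative. Single values were compared with exact permutation tests. The scripts were tested on simulated data.

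Named miRNAs are the members, the 3 nearest to each member by root mean square difference of centred log2 CPM (prior count 0.5), and up to 3 of each list by absolute log2 fold change. Further list members (miRNAs directed at DNA methyltransferases, induced through Toll-like receptors, or of leukocytes, neurons and oligodendrocytes) were named after their values were seen. Within groups, pairs of libraries gave chi-square values from 63.4 to 663 for each degree of freedom, so none was a copy. Intervals and the floor of 3 counts cover counting error only. Coordinates are not given, because GRCr8 is another assembly than the authors'. RT-qPCR, in situ hybridization and cell culture were not used here.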

Additional observations from a re-analysis of the deposited data

How the results depend on the processing

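The number of miRNAs called, 16, was 25 with edgeR's likelihood ratio test and ranged from 8 to 20 with each rat left out; it fell to 8 without BCP rat 2, 10 without BCP rat 3 and 9 without sham rat 1. miR-148a-5p was called with DESeq2 (log2 fold change 0.85), edgeR's exact test (0.87) and its likelihood ratio test (0.87). Rats with the same number are different animals, and the correlations of their deviations from the group means were -0.063, -0.42 and 0.56. Rats with different numbers gave correlations from -0.54 to 0.65, so these values cannot tell whether the numbers pair the rats. The main test was unpaired. With the replicate block 18 miRNAs were called, among them miR-148a-5p (0.88), miR-148a-3p was not (0.78, adjusted p = 0.00974 in edgeR's quasi-likelihood test), and no other family member was. With each rat left out, the log2 fold change ranged from 0.70 to 1.03 for miR-148a-5p, from 0.61 to 0.93 for miR-148a-3p, from 0.066 to 0.31 for miR-148b-5p, from 0.090 to 0.15 for miR-148b-3p, from 0.055 to 0.28 for miR-152-5p, from -0.089 to 0.21 for miR-152-3p, from 0.50 to 1.00 for miR-6329, from -0.059 to 0.17 for miR-376a-5p and from -0.078 to 0.27 for miR-380-5p. In the same fits the difference in arm balance ranged from 0.050 to 0.16 for miR-148a, from -0.093 to 0.22 for miR-148b and from -0.12 to 0.17 for miR-152. The difference in log2 ratio ranged from -0.12 to 0.20 for miR-148b-3p over miR-152-3p and from -0.042 to 0.10 for miR-148b-5p over miR-152-5p. Of the 9 within-rat ratios 8 passed with 6 rats and 0 to 0 with 5, where the smallest possible p is 0.0625 before adjustment. All other differences in paralogue balance and the summed guides kept their direction. Depth limits miR-152-5p most, with 29 to 46 counts. Apart from the smaller number of rats where one was left out, the cause was not tested.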
